A study of Mus musculus with 4 samples.

Results

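Tgm2, the mouse gene of tissue transglutaminase, and Gm20412, a short gene annotated inside the last exon of Tgm2 on the other strand, were followed in 4 RNA-seq libraries of T-helper 2 (Th2) cells. They are 2 of the 50600 genes in the count files. They were chosen by the level of Gm20412, one of the highest in TPM (transcripts per 1000000, which corrects for exon length) in these same libraries, so that level is a description and supports nothing. The samples were 4 biological replicates of mouse primary Th2 cells, CD4 T cells differentiated in culture that secrete IL-4 and related cytokines, all of strain C57BL/6NJ, with age and sex not stated and no further agent named. According to the headers the cells were sorted and taken at 72 h. All 4 form 1 group with no reference condition. The labels give each replicate its own biosample but name the same donor entry for all 4, so the number of mice is not known and p-values measure only the spread between these libraries, which may be technical.

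Transglutaminases are calcium-dependent enzymes that join glutamine side chains of proteins to lysines or to amines. The Tgm2 product, transglutaminase 2 (TG2), also binds GTP, works inside cells as well as on the cell surface and in the matrix, and is found in many tissues, including endothelium and smooth muscle. In mouse and human macrophages Tgm2 is a known IL-4-induced gene, and retinoic acid induces it in several cell types. Gm20412 is annotated in GENCODE as a processed transcript with no known product.

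Gm20412 (ENSMUSG00000092283.1) lies on the plus strand of chromosome 2 from 158117154 to 158117905 (mm10) and has 2 exons of 521 and 112 bp. All 633 bp of its exons lie opposite exon 13, the last exon of Tgm2. Tgm2 (ENSMUSG00000037820.15) runs on the minus strand from 158146436 down to 158116402, and its full-length transcript has 13 exons and 3596 bases. The 521 bp exon of Gm20412 (158117154 to 158117674) is opposite the Tgm2 3′ untranslated region (UTR). Its 112 bp exon (158117794 to 158117905) is opposite the last 102 bp of the coding sequence, the 3 bp of the stop codon and 7 bp of the 3′ UTR. The intron between them, 119 bp long, is itself opposite the 3′ UTR. Gm20412 thus lies opposite 13.7% of the 4608 bp of Tgm2 exon in the files.

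The end of the Tgm2 coding sequence and the stretch of Gm20412 opposite to it are shown because a fragment from here can be counted for either gene, depending only on the strand assigned to it. Both stretches cover chr2:158117801-158117905 (GRCm38, the assembly also called mm10) and are read from the GENCODE M21 transcripts, 5′ to 3′. Capitals mark the Tgm2 stop codon and its complement. Both Gm20412 exons were exact reverse complements of Tgm2 sequence.
Gm20412: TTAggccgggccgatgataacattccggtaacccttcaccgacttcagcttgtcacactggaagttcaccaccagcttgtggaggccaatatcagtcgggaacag
Tgm2: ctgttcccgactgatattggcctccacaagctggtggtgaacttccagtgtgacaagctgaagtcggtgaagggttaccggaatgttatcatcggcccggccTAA

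The borders of the Gm20412 intron are shown because they carry the strand of its annotated splicing. In each stretch of 18 bases, on the plus strand, capitals mark the intron's outermost bases.
Intron 5′ border: agtacactGTcttctgaa
Intron 3′ border: gtctgggaAGgggtccct
The intron begins with GT and ends with AG when read on the Gm20412 strand, the usual borders of a spliced intron. Read on the Tgm2 strand, the same stretch begins with CT and ends with AC. The poly(A) signals AATAAA and ATTAAA were searched on each transcript's own strand. Gm20412 held neither, while Tgm2 held AATAAA, 27 bases before its end. Among GENCODE M21 transcripts of at least 50 bases, 22.1% of those that are not protein-coding and 50.2% of those that are hold one of the 2 signals in their last 50 bases. These are matches of letters in a window and say nothing of how either RNA is processed.

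**Figure D1:**
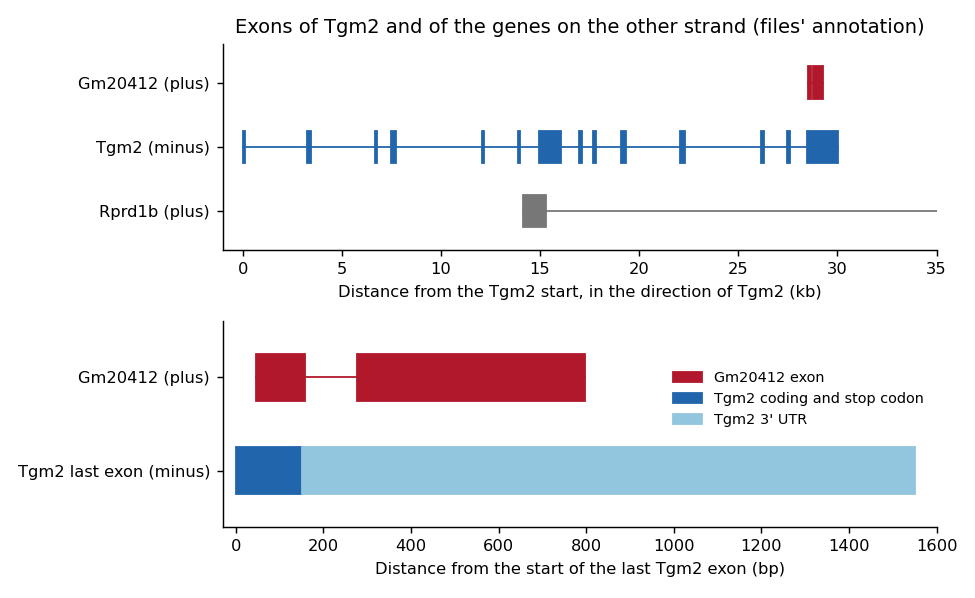
The upper map places exons by their distance in kb from the Tgm2 start and the lower map by their distance in bp from the start of the last Tgm2 exon; boxes are exons of Gm20412 (red), Tgm2 (blue) and Rprd1b (grey), and thin lines are introns. Both Gm20412 exons sit within the last Tgm2 exon, mostly opposite its 3′ UTR (light blue), and the final exon block of Rprd1b ends inside Tgm2.

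A further gene meets Tgm2 on the plus strand. Rprd1b encodes a protein that binds the tail of RNA polymerase II. Of its 8 annotated transcripts, 1 runs 15896 bp into Tgm2 and shares 370 bp of exon with it (158131139 to 158131508). Of these, 178 bp are opposite exon 6 of the full-length Tgm2 transcript and 192 bp opposite a retained intron of another Tgm2 transcript. Together Gm20412 and Rprd1b lie opposite 21.8% of the Tgm2 exon sequence, and 3605 bp lie opposite no exon.

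The values are the authors' deposited counts of read pairs per gene, counted on the annotated strand. Library totals were 1780682, 1857433, 1446040 and 1274431 counts in replicates 1 to 4, and a gene without counts could still have had up to 3 counts, or 1.62 to 2.35 per 1000000 counts (CPM), by counting error alone. Genes with no exon opposite another gene, 42411 of the 50600, held 16.4%, 8.54%, 9.14% and 20.1% of the counts in replicates 1 to 4. The Th2 label was checked against markers. All 7 T cell markers (such as Cd2, Cd4 and Lck) had a mean TPM of at least 1, against 38.5% of protein-coding genes. So did all 6 Th2 markers (such as Il4, Il13 and Gata3). This check asked for a floor and not for a rank. Il13 was the highest of these markers with a mean of 97.8 TPM. Csf1r, a macrophage marker with an exon opposite Hmgxb3, had 131 TPM. Of the Th2 markers only 2, Il4 and Il13, have no exon opposite another gene, against 6 of the T cell markers. For Il5, Gata3, Il4ra, Stat6 and Cd3e, counts from the shared exon sequence cannot be told apart from fragments of the opposite gene. That sequence is 40 bp in Stat6 and up to 571 bp in Il4ra, and how many counts came from it is not known. Together the T cell markers had 376, 156, 92 and 577 CPM in replicates 1 to 4, and the Th2 markers 326, 159, 163 and 464 CPM. Both sums were higher in replicates 1 and 4 than in the other libraries, but not every marker was. Il4 had 58.4, 59.2, 58.1 and 50.2 CPM in replicates 1 to 4, lowest in replicate 4, and Cd3e and Il5 were also not higher in both replicates 1 and 4 than in both other libraries.

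Gm20412 was among the most counted features of every library. It had 19881, 27840, 18884 and 13980 counts in replicates 1 to 4, which is 1.12%, 1.5%, 1.31% and 1.10% of all counts. Per library these were 26837, 33332, 29623 and 27240 TPM, with a mean of 29258 ± 2981 (SD, n = 4). The highest value was in replicate 2 and the lowest in replicate 1, and they lay close together. Ranked by mean TPM, a scale that divides by exon length and so favours short genes, Gm20412 was in place 2 of 50600 genes. By CPM, which does not use length, it was in place 7.

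Its neighbours in this ranking were mt-Nd6, a mitochondrial gene of complex I, with 40495 ± 6672 TPM above it and CT010467.1, an rRNA entry, with 24732 ± 6121 TPM below it. Then came Gm45552, an antisense gene, with 24221 ± 1672 TPM and Gm20721, nested in Gnas, with 21377 ± 738 TPM (SD, n = 4 each). These values show where Gm20412 stood when it was chosen and were not tested.

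Tgm2 itself was counted far less on its own strand. It had 480, 172, 117 and 416 counts in replicates 1 to 4, or 270, 92.6, 80.9 and 326 CPM. Replicates 1 and 4 were high and replicates 2 and 3 low, a 4.03-fold range in CPM, while Gm20412 varied 1.37-fold and was highest in replicates 2 and 3. Its mean was 63.5 ± 43.4 TPM (SD, n = 4), in place 1581 by mean TPM. In individual libraries it ranked between place 1148 (replicate 4) and place 2449 (replicate 3).

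Rprd1b had 3949, 7146, 4094 and 2923 counts in replicates 1 to 4, and 633 ± 141 TPM (SD, n = 4). Like Gm20412 it was highest in replicate 2. It had 7.03 to 41.5 counts for each count of Tgm2. Even if every Rprd1b count had fallen into the 370 bp shared with Tgm2, that stretch would have had 7900 to 19313 counts per kb, against 22085 to 43981 per kb for Gm20412. Gm20412 was then 2.28 to 2.94 times as dense, which is a description only, since its level chose the pair. How many Rprd1b counts came from that stretch cannot be told from counts per gene.

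**Figure D2:**
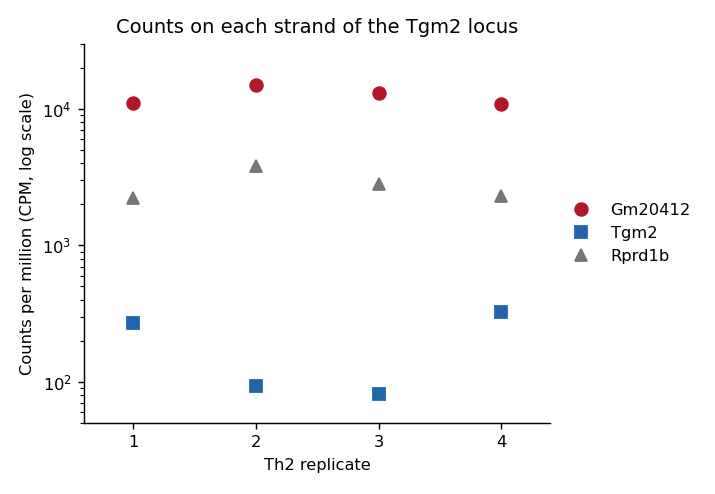
CPM on a log axis in each of the 4 Th2 replicates for Gm20412 (red circles), Tgm2 (blue squares) and Rprd1b (grey triangles). Gm20412 stayed between 10970 and 14988 CPM, while Tgm2 lay between 80.9 and 326 CPM, with replicates 1 and 4 above replicates 2 and 3.

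Within the pair, the Gm20412 strand held nearly all counts in every library. Tgm2 had 2.36% of the counts of the pair in replicate 1 (95% Wilson interval 2.16 to 2.57), 0.614% in replicate 2 (0.529 to 0.713), 0.616% in replicate 3 (0.514 to 0.737) and 2.89% in replicate 4 (2.63 to 3.18). Replicates 2 and 3 had nearly the same share, and their intervals lay apart from those of replicates 1 and 4. The intervals cover counting error only, and most genes tested varied between these libraries by more than that. Per kb of exon, Gm20412 had 245 to 1178 times the counts of Tgm2. On the log2(TPM + 1) scale Gm20412 exceeded Tgm2 by 8.22, 10.15, 10.14 and 7.92 in replicates 1 to 4, a mean of 9.11 ± 1.21 (SD, n = 4). No test is given, since the level of Gm20412 chose the pair.

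No source used here gives the strand orientation of the library kit, and the counts were made with the strand option at 1, which gives a pair to the gene on the strand of its first read. RNA of Gm20412 and fragments of the last Tgm2 exon assigned to the other strand therefore cannot be told apart in counts per gene, and a count here is that of a strand, not the level of an mRNA. The question was not particular to this pair. Genes with no exon opposite another gene, 42411 of the 50600, held only 8.54% to 20.1% of the counts per library. The part of the strand option in these values was not tested.

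**Figure D3:**
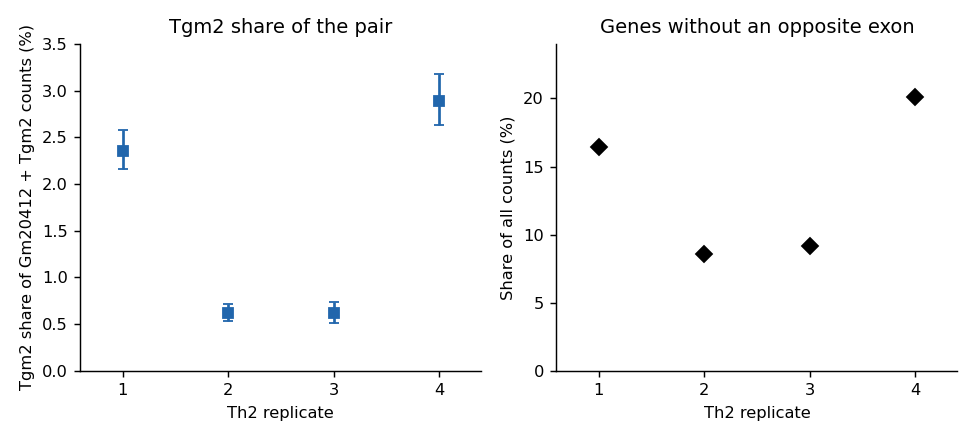
Left, Tgm2 counts as a percentage of Gm20412 plus Tgm2 counts in each Th2 replicate; right, counts of genes without an opposite exon as a percentage of all counts. Bars are 95% Wilson intervals, smaller than the points on the right, and both shares are higher in replicates 1 and 4 (2.36% and 2.89% on the left), with 0.614% and 0.616% in replicates 2 and 3.

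The Tgm2 share moved with the share of counts in genes that have no opposite exon and with the summed T cell and Th2 markers, though not with Il4, Il5 or Cd3e alone. Their part in the result was not tested. Per 1000000 counts of genes without an opposite exon, a scale chosen after seeing the data and applied although Tgm2 itself has opposite exons, Tgm2 had 1642, 1084, 886 and 1621 counts in replicates 1 to 4. The range was then 1.85-fold instead of 4.03-fold. Per 1000000 counts of genes with an opposite exon, Gm20412 had 13358, 16388, 14372 and 13736, a 1.23-fold range.

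Both members varied between replicates by more than counting error. Each gene's counts were compared with Poisson sampling by a chi-square test, on library sizes scaled by edgeR's TMM factors and with Benjamini-Hochberg adjustment, for 7752 genes whose counts averaged at least 10. It called 88.2% of them, so the call is shared by most genes and is not a result about these 2. The chi-square statistic was 5492 for Gm20412 and 225 for Tgm2 (3 degrees of freedom each; adjusted p = 3.75e-47 for Tgm2). Its size grows with the count and depended on the scaling and the libraries. On total counts it was 1414 for Gm20412 and 374 for Tgm2. With a library left out, and so fewer degrees of freedom, Gm20412 had 3430 without replicate 1, 1908 without replicate 2, 5892 without replicate 3 and 2942 without replicate 4, while Tgm2 had 113 without replicate 3 and 132 to 203 in the other cases. The SD of log2 TMM-scaled CPM, which depends less on it, was 0.42 for Gm20412 and 0.83 for Tgm2, against a median of 0.70 over genes. Scaling by TMM moved the libraries and widened the range of Gm20412 to 1.89-fold, with 10286, 17606, 14228 and 9303 CPM, and narrowed that of Tgm2 to 3.14-fold, with 248, 109, 88.2 and 277 CPM in replicates 1 to 4.

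Each library was also set against the remaining 3, which compares libraries since there is 1 condition. By edgeR's quasi-likelihood test with Benjamini-Hochberg adjustment, neither member was called in any of the 4 fits, which called 0, 0.0129%, 0.0387% and 0% of 7752 genes for replicates 1 to 4. The lowest unadjusted p was 0.0678, for Tgm2 in replicate 3, and DESeq2 called neither member in any fit. In replicate 3 the log2 difference of Tgm2 was -1.26 ± 0.69 (SE), with an adjusted p of 0.61 in edgeR. In replicate 4 it was 0.90 ± 0.52 (SE; edgeR adjusted p = 0.58). These outcomes depended on which libraries were compared. When replicate 1 was left out, Tgm2 in replicate 4 was higher than in replicates 2 and 3 by 1.51 ± 0.25 (SE; edgeR adjusted p = 0.024; 14.6% of genes called). When replicate 4 was left out, it was higher in replicate 1 by 1.35 ± 0.27 (edgeR adjusted p = 0.021; 3.27% called). Without replicate 2, Tgm2 in replicate 3 differed from replicates 1 and 4 by -1.55 ± 0.41 (edgeR adjusted p = 0.0071; 9.23% called), and without replicate 3 it differed in replicate 2 by -1.23 ± 0.40 (edgeR adjusted p = 0.046; 4.88% called). In the same 3-library fits Gm20412 went the other way. It differed by -0.75 in replicate 4 (edgeR adjusted p = 0.015), by -0.61 in replicate 1 (0.0096) and by 0.89 in replicate 2 (0.011), while 0.57 in replicate 3 was not called (0.078). With a lone library, these fits assume that it varies like the others. They also rest on TMM scaling, which over the 4 libraries widened the range of Gm20412 and narrowed that of Tgm2. The fits of 3 libraries were not run on total counts. The remaining 8 fits of 3 libraries called neither member and few genes. They called 0.0274% of genes for replicate 2 and 0.0274% for replicate 3 without replicate 1, 0.0249% for replicate 1 and 0.0373% for replicate 4 without replicate 2, 0% for replicate 1 and 0.0488% for replicate 4 without replicate 3, and 0.0136% for replicate 2 and 0.0273% for replicate 3 without replicate 4.

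The pattern of each member over the 4 libraries was set beside that of all 7752 genes, by the root mean square difference of log2(CPM + 1) deviations from each gene's mean. The points are only 4 and share library depth, so this describes likeness and tests nothing. The 3 genes most like Gm20412 were B3gnt8, a glycosyltransferase gene (difference 0.01), Gm13562 and Gm26613, and each has an exon opposite another gene. The 3 most like Tgm2 were Polr2m, whose product associates with RNA polymerase II (0.03), Spdl1, a spindle gene, and G3bp2, an RNA-binding protein gene. Of these 3, only G3bp2 has an opposite exon. The median difference over genes was 0.73 to Gm20412 and 0.87 to Tgm2. Widening the set to the 100 nearest genes, a step chosen after seeing the data, 5 of those near Gm20412 and 74 of those near Tgm2 had no opposite exon, against 49.4% of the genes tested. Genes without an opposite exon deviated by a median of 0.54, -0.61, -0.62 and 0.90 in replicates 1 to 4, and Tgm2 by 0.74, -0.79, -0.98 and 1.02. Genes with an opposite exon had medians between -0.03 and 0.04, and Gm20412 deviated by -0.16, 0.27, 0.07 and -0.18.

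**Figure D4:**
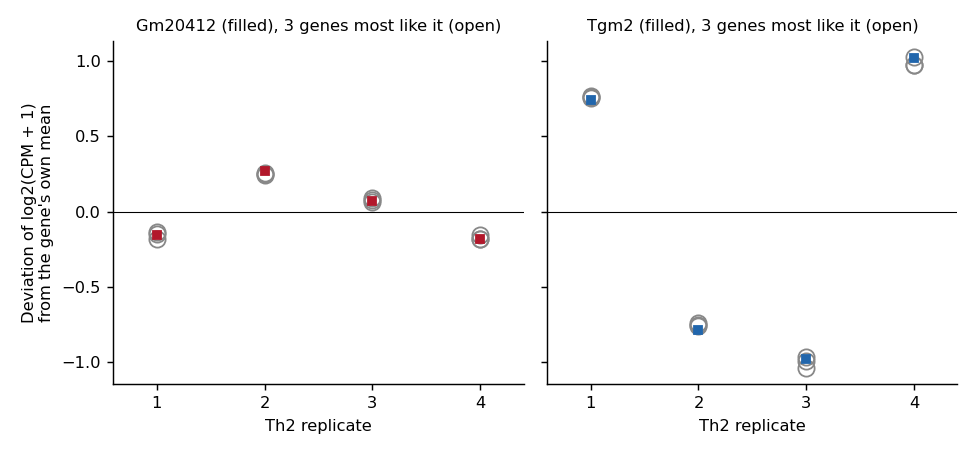
Deviation of log2(CPM + 1) from each gene's own mean in the 4 Th2 replicates, for Gm20412 (left) and Tgm2 (right) as filled squares and the 3 genes most like each as open circles. Gm20412 and the genes like it stayed within -0.18 and 0.27, whereas Tgm2 and the genes like it were high in replicates 1 and 4 and low in replicates 2 and 3.

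The pair was set among 302 nested pairs, in which a gene has at least 80% of its exon length opposite exons of a single longer gene that codes for protein, with 20 counts or more in the pair. The nested gene had more counts per kb than the longer gene in 262 of them (86.8%), so a denser nested gene is what most such pairs showed. The log2 ratio of summed counts per kb was 8.95 for Gm20412 over Tgm2, against a median of 6.88, in place 73 of 302. Within single libraries the pair stood in place 78, 55, 61 and 69 in replicates 1 to 4. The level of Gm20412 chose the pair, so its place is a description and supports nothing. By the count of the nested gene the pair was second only to Gm20721 in Gnas, the gene of a G protein subunit. The next were Gm11175 in Jund, an AP-1 factor gene, Gm45507 in Bnip3, a mitophagy gene, and Gm17041 in Cish, a cytokine signalling inhibitor.

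In each of these 5 pairs, which were taken by their counts, replicates 1 and 4 had a larger share of counts on the longer gene than the other libraries. For Gnas it was 0.812%, 0.285%, 0.280% and 0.949% in replicates 1 to 4. For Jund it was 1.4%, 0.571%, 0.689% and 1.48%, and for Cish 0.963%, 0.701%, 0.701% and 1.73%. Tgm2 had the highest share of these longer genes in replicates 1 and 4, and in replicates 2 and 3 it was exceeded by Cish and, in replicate 3, also by Jund. Over all 302 pairs the longer genes had 28.2%, 22.5%, 24.4% and 26.3%.

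**Figure D5:**
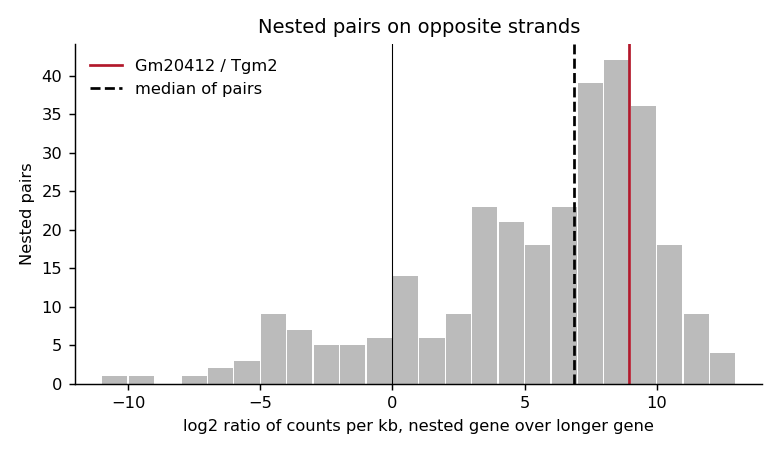
Number of nested pairs by the log2 ratio of counts per kb, nested gene over longer gene, over 4 libraries and 302 pairs. The red line marks Gm20412 over Tgm2 at 8.95 and the dashed line the median pair at 6.88.

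Of the 8 members of the transglutaminase family besides Tgm2, 6 were without counts in all 4 libraries. In the family 1 had a mean TPM of at least 1, against 38.5% of protein-coding genes and 23.1% of all genes. This was Tgm4, the prostate transglutaminase, with 374, 423, 437 and 228 counts in replicates 1 to 4 and 74.4 ± 14.5 TPM (SD, n = 4). Tgm4 shares 830 bp of exon with Zdhhc3, a palmitoyltransferase gene on the other strand, which had 32, 7, 5 and 9 counts. As with the Tgm2 locus, counts of either strand from the shared stretch cannot be told apart from fragments of the opposite gene. Tgm1, the keratinocyte transglutaminase, had 5, 1, 0 and 0 counts. Tgm3, the epidermal transglutaminase, Tgm5, Tgm6, Tgm7, F13a1, the coagulation factor XIII A subunit, and Epb42, an enzymatically inactive red cell relative, had 0 counts in all 4 libraries. None of these 6 has an exon opposite another gene, and 0 counts allow up to 1.62 to 2.35 CPM on their own strand. Of the 7 other family members without an opposite exon, Tgm1 included, 0 reached a mean TPM of 1, against 31.5% of such protein-coding genes.

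Among genes whose products bind TG2 at the cell surface or in the matrix, 3 of 11 (27.3%) had a mean TPM of at least 1, against 38.5% of protein-coding genes, and the list median was 0.223 TPM, against 0.248 over protein-coding genes. Of the 10 listed genes without an opposite exon, 3 had such a level, against 31.5% of such protein-coding genes. Itgb1, the integrin β1 chain, led with 20.1 ± 3.88 TPM and had 114, 80, 90 and 65 counts in replicates 1 to 4. Tgfb1, whose latent form TG2 helps to anchor, had 8.88 ± 4.10 TPM, and Itgb3, the integrin β3 chain, 3.55 ± 4.80 TPM (SD, n = 4 each). Without replicate 4 the Itgb3 counts left were 15, 8 and 2, against 51 in replicate 4. Fn1, the gene of fibronectin, to which TG2 binds tightly, had 0, 2, 4 and 4 counts.

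Of 8 genes for known TG2 substrates, 6 had a mean TPM of at least 1, against 38.5% of protein-coding genes, and the list median was 17.4 TPM, against 0.248. Gapdh, the gene of a glycolytic enzyme, with 68 bp of exon opposite Iffo1, had 703, 267, 144 and 559 counts in replicates 1 to 4 and 98.9 ± 66.8 TPM. Vim, the gene of vimentin, had 393, 157, 89 and 410 counts and 55.3 ± 41.4 TPM, and Nfkbia, the gene of the NF-κB inhibitor IκBα, had 77, 27, 25 and 85 counts and 33.5 ± 24.6 TPM (SD, n = 4 each). Like Tgm2, these 3 were higher in replicates 1 and 4 than in both other libraries. So was Rhoa, which also has exons opposite other genes, with 46.6, 16.7, 11.8 and 62.8 CPM in replicates 1 to 4. The pattern was not particular to this list. Among genes tested, the 3827 without an opposite exon deviated by a median of 0.54, -0.61, -0.62 and 0.90 in replicates 1 to 4. Rb1, the retinoblastoma gene, had 33.1, 18.8, 38.0 and 58.8 CPM in replicates 1 to 4, with replicate 3 above replicate 1. It has 488 bp of exon opposite Rcbtb2, and its counts from that stretch cannot be told apart from fragments of Rcbtb2. S100a11 had 8, 1, 0 and 36 counts, and Anxa1 and Spp1 had none. Of the 5 listed substrate genes without an opposite exon, 3 had a mean TPM of at least 1, against 31.5% of such protein-coding genes.

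Of 17 retinoid genes, 7 (41.2%) had a mean TPM of at least 1, a share near the 38.5% of protein-coding genes. The list median was 0.462 TPM, against 0.248. All 7 were among the 16 without an opposite exon, and 31.5% of protein-coding genes without one had such a level. Crabp2, a retinoic acid binding protein gene, had 36, 14, 1 and 66 counts in replicates 1 to 4 and 23.4 ± 27.1 TPM, with 61.6 TPM in replicate 4 and 0.75 to 23.3 TPM in the other libraries. Rarb, a retinoic acid receptor gene, had 5.44 ± 2.22 TPM, Stra6, a retinol transporter gene, 5.28 ± 3.28 TPM, and Rxrb, a retinoid X receptor gene, 5.02 ± 2.36 TPM (SD, n = 4 each). The enzymes that make retinoic acid, Aldh1a1, Aldh1a2 and Aldh1a3, had 0 counts in all 4 libraries.

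Of 10 genes that IL-4 induces in macrophages, all without an opposite exon, 1 had a mean TPM of at least 1, against 31.5% of protein-coding genes without an opposite exon. This was Pdcd1lg2, the gene of the PD-1 ligand PD-L2, with 19, 3, 6 and 12 counts in replicates 1 to 4 and 5.97 ± 4.12 TPM (SD, n = 4). Arg1, the arginase gene, had 4, 0, 2 and 1 counts, Clec10a had 1 count in replicate 2, and the other 7, among them Retnla, Chil3 and Mrc1, had none. Other cells that carry TG2 were looked for by their markers. Of 8 macrophage markers, 6 had 0 counts in all 4 libraries, among them Adgre1, Itgam and Lyz2, while Cd68 had 16, 11, 33 and 0 and Csf1r, which has an exon opposite Hmgxb3, had 716, 827, 661 and 542. Together the macrophage markers had 411 to 480 CPM, nearly all of it in Csf1r. Of 6 endothelial markers, Cdh5, Kdr, Tek and Tie1 had 0 counts, and Pecam1, which leukocytes also express, had 79 to 120. Of 6 fibroblast markers, Col1a2, Col3a1 and Dcn had 0 counts, and Thy1, also a mouse T cell gene, had 123, 32, 23 and 80. Together the endothelial markers had 53.4, 42.5, 83.0 and 84.7 CPM in replicates 1 to 4, highest in replicate 4, and the fibroblast markers 70.2, 17.2, 15.9 and 65.1 CPM, nearly all from Thy1 and, as for Tgm2, higher in replicates 1 and 4. Genes without an opposite exon showed that pattern by their median, and the part of these markers in the Tgm2 values was not tested. Of 4 B cell markers 1, Cd79a, had a mean TPM of at least 1, with 35, 41, 9 and 2 counts, and 3 red cell markers had none. Counts near 0 on an annotated strand do not show that such cells were absent. Fewer cells of a type and less RNA per cell cannot be told apart in these bulk samples.

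Within 200 kb of Tgm2 lie 9 further genes, of which 3 had a mean TPM of at least 1, against 23.1% of all genes. Besides Rprd1b these were Tti1, a cofactor gene of the PI3K-like kinases, with 28, 1, 0 and 17 counts in replicates 1 to 4, and 2010009K17Rik, an antisense gene with 130 bp of exon opposite Rprd1b, with 0, 8, 13 and 0. Tti1 was thus counted mainly in replicates 1 and 4, as Tgm2 was, and 2010009K17Rik only in replicates 2 and 3. Tti1 has no opposite exon, and such genes were higher in replicates 1 and 4 by their median. The lipopolysaccharide-binding genes Lbp and Bpi, with Vstm2l, 1700060C20Rik and Mir7685, had no counts, and D630003M21Rik had 2 in replicate 2.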

How the data were processed

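RNA-seq was analysed for 4 replicates of Th2 cells. The assay is labelled total RNA-seq, but the linked library protocol has poly(A) RNA in its title. The authors' deposited values are raw counts of fragments per gene. Per the file headers they were made with featureCounts 1.4.6-p4 on STAR alignments, over exons, with both ends mapped, strand option 1 and GENCODE M13 on mm10. Exon lengths are from the same files. No source used here gives the version of STAR.

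TPM and CPM were computed from these counts. Symbols came from GENCODE M21 by identifier, matching 50376 of 50600. Shared exon sequence (at least 1 bp) was found with bedtools 2.31.1. The tests were run with edgeR 4.0.16 and DESeq2 1.42.0 in R 4.3.3, on genes whose counts averaged 10 or more, with Benjamini-Hochberg adjustment at 0.05, and were checked on simulated counts. Intervals are Wilson at 95% and cover counting error only.

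Members and lists were chosen with earlier results of these data known. Named genes were the members, the transglutaminase family, the 4 highest of each other list, neighbours with a mean TPM of at least 1, the genes next in rank, the 5 most like each member (the 3 nearest are given, and the rest are not reported here) and the 5 leading nested pairs; further list members, markers and genes on the other strand were named after their values were seen. No pair of libraries agreed within sampling noise.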

Additional observations from a re-analysis of the deposited data

Results flagged for a closer look

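Of 41 sets of 4 values tested, 2 had a highest value far from the other 3 relative to their range (Dixon's ratio above its 95% critical value), and chance gives about 1 in 20. S100a11, the gene of a TG2 substrate, had 86.9 TPM in replicate 4, from 36 counts, while the other libraries had 8, 1 and 0 counts. Gm45552, next but 1 below Gm20412 in rank, had 26711 TPM in replicate 3, with the other 3 libraries between 23120 and 23601 TPM. Neither member of the pair had such a value.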

How the results depend on the processing

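No paired analysis was possible because the labels give 1 group. The TPM of Gm20412 was 19819 as FPKM and 36453 when rescaled over nuclear genes without rRNA and structured RNAs, and its rank was 7 by CPM. The log2 ratio of Gm20412 to Tgm2 was 6.27 both with counts in place of TPM and with the Tgm2 counts over the shared length. The pair, chosen for the level of Gm20412, stood above 76.1% of the nested pairs, 82.8% when 50% of the length had to be nested and 72.4% with at least 100 counts. Without a filter on low counts, 11689 genes varied beyond Poisson sampling, against 6838. The 4 fits of 1 library against the other 3 called 4 genes in all, 1 with DESeq2, 9 with median-of-ratios factors and 9 without the filter; with a replicate left out the total was 243 to 1068. The other 41 alternatives for these main results kept direction and stayed within the spread or within 1.5 times. The alternatives included leaving out each replicate, which put Tgm2 between 47.5 and 76.2 TPM. At this depth a gene with 0 counts could reach 2.35 CPM in replicate 4.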
